A study of Mus musculus with 12 samples.

Results

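Fatty acid beta-oxidation was followed here through 31 genes that encode the steps from fatty acid activation to chain shortening, in adipose tissue RNA of wild-type mice, mice labelled Bbs2-/- and mice of that genotype given an inhibitor of glucosylceramide synthase (GCSi). The rule lists the genes by name, from the pathway (carnitine shuttle, mitochondrial and peroxisomal enzymes, electron transfer flavoprotein, a thioesterase and the regulator Ppara), and uses no measured value. All 31 were found among the 53431 gene IDs of the count table, and all 31 were among the 15968 genes with enough counts to be tested. The BBSome, of which the Bbs2 protein is a part, moves membrane proteins in and out of cilia, and people without a working BBSome have Bardet-Biedl syndrome, often with obesity.

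The data were 12 RNA-seq libraries of whole adipose tissue, 4 from wild-type mice (WT), 4 from untreated Bbs2-/- mice and 4 from Bbs2-/- mice that ate feed with Genz-667161 at 0.033% by weight from 2 to 6 months of age. Every group had the mixed background C57BL/6 x 129/SvJ and was sampled at 6 months. No inhibitor-fed WT group was among the samples, so each effect of the inhibitor was measured on the Bbs2-/- background alone. The labels give neither the fat depot nor the sex, and do not say that each library came from a separate mouse, so the p-values measure the spread between these libraries, which may be technical. Levels are counts per 1000000 (CPM), estimated read counts divided by a library size scaled by the trimmed mean of M-values, with the mean ± SD of n = 4 libraries. A gene was called changed at an adjusted p under 0.05 in edgeR's quasi-likelihood test over all 15968 genes, and the log2 fold changes and their SE come from that test.

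Some facts of the whole series bear on what follows. The libraries held 16317865 to 20224200 estimated counts. Bbs2 itself stood at 12.1 to 12.7 CPM in the WT libraries and at 53.7 to 70.6 CPM in the 8 libraries labelled Bbs2-/-. The level of the targeted gene thus went against the label, so Bbs2-/- is used below as the name of the libraries so labelled, and each direction rests on that label. Defining adipocyte genes were abundant in every library, with Adipoq at 978 CPM at the least. The brown fat gene Ucp1 was at most 3.92 CPM. WT 1 also held Crisp1, a gene of the epididymis, at 1082 CPM, against 0.291 CPM at most elsewhere. Crisp1 was 1 of 8 epididymis genes examined, and in WT 1 the others were at 0.436 CPM (Lcn5) or below. Lcn8, Lcn9, Defb20, Adam7 and Cst11 were highest in WT 4, at 1.51 CPM at most.

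In beta-oxidation, acyl-CoA synthetases first activate a fatty acid to its CoA ester. The carnitine shuttle then carries the acyl group into mitochondria, where a cycle of dehydrogenation, hydration, a further dehydrogenation and thiolysis releases acetyl-CoA. Electrons of the initial dehydrogenation pass through the electron transfer flavoprotein to the respiratory chain. Peroxisomes run a parallel cycle for very long and branched chains. White adipocytes are best known for storing fatty acids and also oxidise some of them, and PPAR alpha, encoded by Ppara, is a nuclear receptor that activates many of these genes in liver.

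Sequences are shown for genes on which the results below turn: Ehhadh, which had the lowest fold change of the 31 in the libraries labelled Bbs2-/-, Cpt1a and Acsl5, which moved against most of the other genes, and the shared start region of Hadha and Hadhb, which encode the 2 subunits of 1 enzyme yet differed in their calls. They come from RefSeq's promoter table (GRCm38.p6), cut to a stretch that holds no annotated exon, and 26 of the 31 genes matched that table. The stretches of Cpt1a and Acsl5 lie before the RefSeq start but inside the gene spans given below, since other annotated transcripts start further upstream. Capitals mark a CCAAT box, written ATTGG where it lies on the opposite strand.
Ehhadh, chr16:21787835-21788084, minus strand: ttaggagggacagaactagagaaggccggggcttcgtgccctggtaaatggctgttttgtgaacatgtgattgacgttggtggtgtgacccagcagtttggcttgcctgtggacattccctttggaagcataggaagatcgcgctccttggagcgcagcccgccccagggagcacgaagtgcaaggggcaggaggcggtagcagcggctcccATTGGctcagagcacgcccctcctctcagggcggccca
Cpt1a, chr19:3323051-3323284, plus strand: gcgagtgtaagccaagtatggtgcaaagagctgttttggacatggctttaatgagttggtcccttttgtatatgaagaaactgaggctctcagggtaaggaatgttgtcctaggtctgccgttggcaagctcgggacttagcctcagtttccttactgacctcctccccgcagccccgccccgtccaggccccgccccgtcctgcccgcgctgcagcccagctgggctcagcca
Acsl5, chr19:55253119-55253368, plus strand: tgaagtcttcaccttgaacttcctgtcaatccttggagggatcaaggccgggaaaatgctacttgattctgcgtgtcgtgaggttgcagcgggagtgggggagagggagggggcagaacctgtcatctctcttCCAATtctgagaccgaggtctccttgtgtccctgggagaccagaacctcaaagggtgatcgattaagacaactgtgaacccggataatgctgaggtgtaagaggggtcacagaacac
Hadhb and Hadha, chr5:30155163-30155247, plus strand: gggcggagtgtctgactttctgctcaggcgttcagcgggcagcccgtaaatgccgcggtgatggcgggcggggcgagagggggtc
Hadha and Hadhb lie head to head, with 85 bases between their annotated ends and 273 bases between their RefSeq start sites. Searched on both strands over the 250 bases before the start, CCAAT occurred in 12 of the 26 genes matched (Acaa1a, Acaa1b, Acot2, Acsl1, Acsl5, Cpt1a, Eci2, Ehhadh, Etfa, Etfb, Etfdh and Hadh) and in 33.8% of all 32851 promoters. The match of Cpt1a runs into its annotated exon and is not shown. The PPAR element (AGGTCA, 1 base of any kind, AGGTCA), its looser form with AGGNCA in both places, which includes the former, and the ERR element TCAAGGTCA, which can overlap either, were in none of these members' windows and in 0.0335%, 0.338% and 0.387% of all promoters. The NRF1 site, GCGCA followed directly by TGCGC, was in the windows of Etfdh and Ppara and in 0.782% of all promoters. A match or its absence describes these letters in this window only.

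Most of the beta-oxidation genes were lower in the libraries labelled Bbs2-/- than in WT. Of the 31, 19 fell and 2 rose (Cpt1a and Acsl5), while 10 did not pass the test. The share called was 67.7%, against a background of 39.2% of all genes tested. The share that fell was 61.3%, against 19.7% of all genes, and the share that rose was 6.45%, against 19.6%. The median log2 fold change was -0.56 over the 31 genes and -0.019 over all genes. In 15 of the 31 genes every Bbs2-/- library lay below every WT library, against 17.2% of all genes, and in 3 genes every one lay above, against 19.5%. Without overlap in either direction were 36.7% of all genes.

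With the inhibitor the direction was the opposite. Against the untreated Bbs2-/- libraries, 13 genes rose and 3 fell (Cpt1a, Acsl5 and Acox3), and 15 did not pass. The share called was 51.6%, against a background of 37.2% of all genes. For genes that rose it was 41.9% against 18.5%, and for genes that fell 9.68% against 18.8%. The median was 0.39 over the 31 genes and 0.032 over all genes. In 18 genes every inhibitor-fed library lay above every untreated Bbs2-/- library, against 19.0% of all genes, and in 3 genes below, against 20.7%, with 39.7% of all genes without overlap in either direction. The 13 genes that rose were all among the 19 that fell in Bbs2-/- against WT, and the other 6 of those 19 did not pass. The 2 comparisons share the untreated Bbs2-/- libraries, so each gene's values are given side by side below and the turn is not counted as separate evidence.

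**Figure D1:**
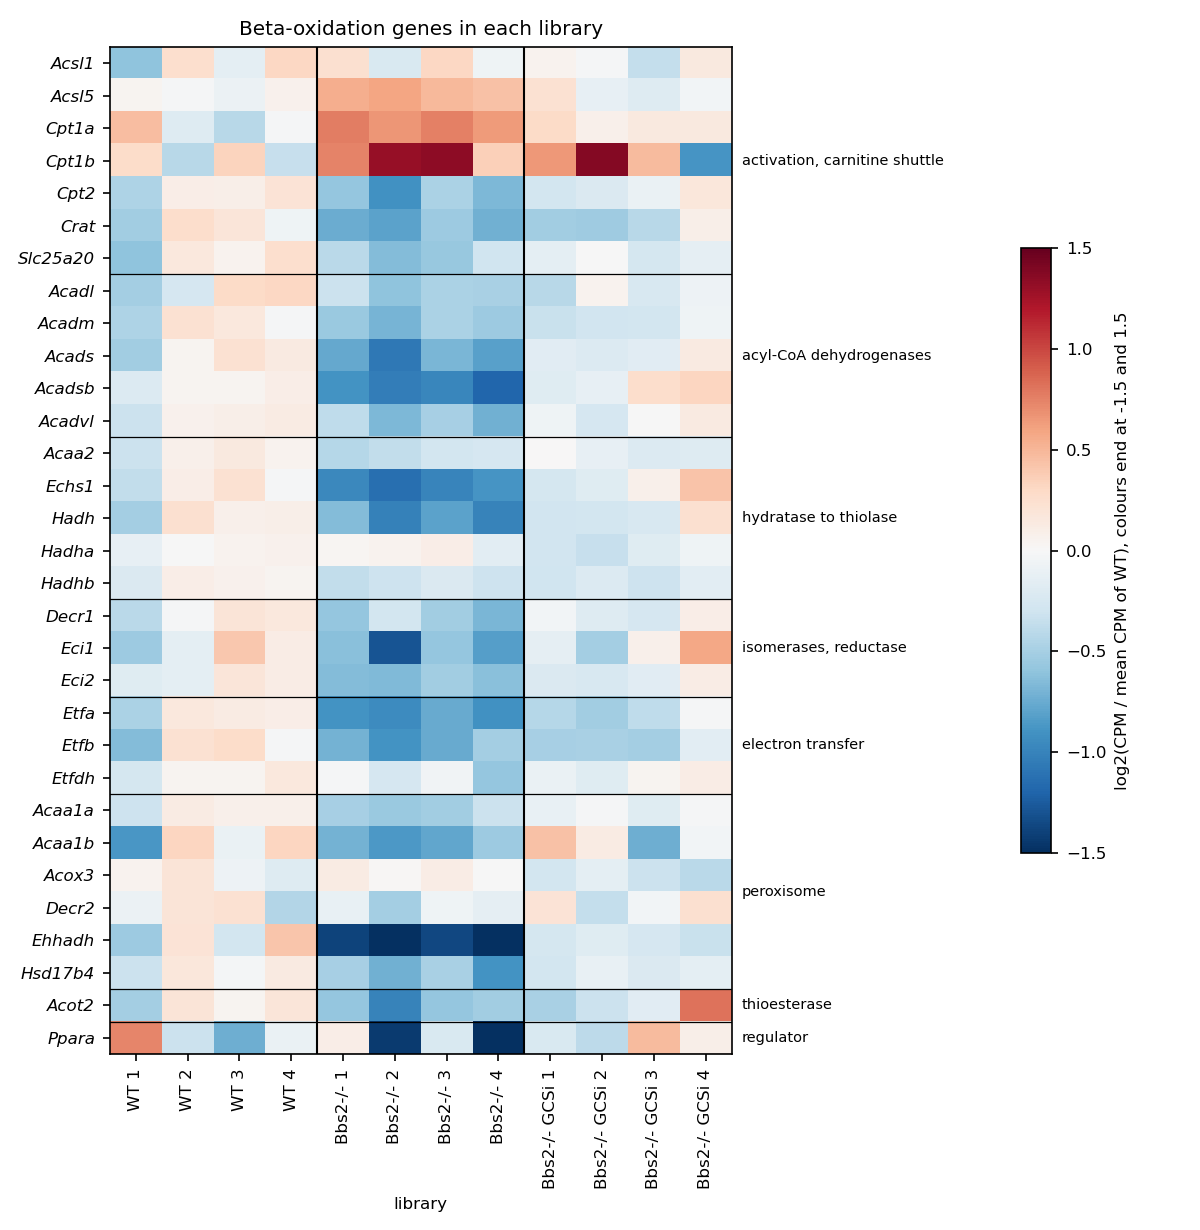
Level of each of the 31 genes (rows, by role) in each of the 12 libraries (columns), as log2 of its CPM over the mean CPM of WT, with colours ending at -1.5 and 1.5. The 4 untreated Bbs2-/- libraries are mostly blue, apart from Cpt1a, Acsl5 and a few others, and WT 1 is bluer than the other WT libraries.

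Between inhibitor-fed Bbs2-/- and WT, none of the 31 genes passed edgeR's test, against a background of 0.257% of all genes (41 genes), 0.175% higher and 0.0814% lower. At an unadjusted p under 0.05 there were 5 genes (Hadha, Hadhb, Etfa, Etfb and Acox3). The share of all genes at that threshold was not counted, so these 5 cannot be set against the 0.257%. DESeq2 and limma called 0 of the 31 as well. The log2 fold changes ran from -0.41 (Etfb, SE 0.18) to 0.60 (Cpt1b, SE 0.42), with a median of -0.09. No gene of the 31 had groups without overlap, against 4.89% of all genes, 2.68% higher and 2.21% lower. A gene that did not pass is not shown to be equal in both groups. Crat, for example, differed by -0.32 with an SE of 0.18.

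The libraries themselves varied. WT 1 had the lowest level of the WT libraries in 25 of the 31 genes, and GCSi 4 the highest of the inhibitor-fed libraries in 20. Without WT 1, 24 genes passed in Bbs2-/- against WT, 2 higher and 22 lower, while the calls over all genes went from 6263 to 7212. The names of WT 2 and WT 3 in the labels have another form than those of the 10 other libraries. Without those 2 libraries the calls over all genes fell to 3417, and 10 of the 31 genes passed. These were Cpt1a and Acsl5, higher, and Acads, Acadsb, Hadh, Echs1, Eci2, Etfa, Ehhadh and Hsd17b4, lower, and these 10 also passed in the same direction in every one of the 22 alternative settings. Of the other calls, 5 were lost when 1 library was left out, at adjusted p from 0.0507 to 0.114. That of Acaa2 was lost without WT 2, 3 or 4 or any Bbs2-/- library, Slc25a20 without WT 2, 3 or 4 or Bbs2-/- 1, 2 or 3, and Eci1 without WT 3 or 4 or Bbs2-/- 2 or 4. Hadhb was lost without WT 2 or Bbs2-/- 1, 2 or 4, and Decr1 without Bbs2-/- 4. For the inhibitor 4 calls were lost, at adjusted p from 0.0513 to 0.115. These were Cpt2 without Bbs2-/- 2, Hsd17b4 without Bbs2-/- 2 or 4, Eci1 without Bbs2-/- 2 or GCSi 4, and Decr1 without Bbs2-/- 1, 3 or 4 or GCSi 1 or 4. Without WT 1, Slc25a20, Acadm and Acaa2 also rose with the inhibitor, at adjusted p of 0.0125, 0.0156 and 0.0487.

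Cell type markers moved with these genes. Of 14 markers of mature adipocytes 11 fell (78.6%, against 19.7% of all genes) and none rose in Bbs2-/- against WT, and 13 rose with the inhibitor (92.9%, against 18.5%). Their summed level was 41777 to 66821 CPM in WT, 26217 to 31979 CPM in Bbs2-/- and 46909 to 63275 CPM with the inhibitor. Of 14 macrophage markers 12 rose in Bbs2-/- (85.7%, against 19.6% of all genes) and 13 fell with the inhibitor (92.9%, against 18.8%). They summed to 875 to 2813 CPM in WT, 6737 to 9458 CPM in Bbs2-/- and 805 to 2025 CPM with the inhibitor. No marker of either list was at 0 in any group, and WT 1 had both the lowest adipocyte sum and the highest macrophage sum of the WT libraries. Markers of fibroblasts and preadipocytes summed to 2282 to 3904, 4444 to 5124 and 2352 to 2816 CPM. The part of these cell types in the results was not tested, and in bulk tissue fewer cells of a type and less RNA per cell cannot be told apart.

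Activation and import into mitochondria held both genes that rose. Of these 7 genes, 2 rose and 3 fell in Bbs2-/- against WT (28.6% and 42.9%, against 19.6% and 19.7% of all genes). With the inhibitor 1 rose and 2 fell (14.3% and 28.6%, against 18.5% and 18.8% of all genes). The same shares of all genes stand beside the counts by role below. Cpt1a (chr19:3322334-3385733, mm10), the liver form of the outer-membrane carnitine palmitoyltransferase and the regulated entry step, had 145, 91.9, 79.0 and 104 CPM in WT 1 to 4, 179, 166, 177 and 164 CPM in the Bbs2-/- libraries and 128, 111, 116 and 116 CPM with the inhibitor. Each Bbs2-/- library was above each WT library and each inhibitor-fed one, and WT 1 was the highest WT library. The log2 fold change was 0.71 (SE 0.15, adjusted p = 0.00316) in Bbs2-/- against WT and -0.55 (SE 0.15, adjusted p = 0.0135) with the inhibitor. Cpt1a was 0.16 (SE 0.15) from WT on the log2 scale in the inhibitor-fed libraries.

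Acsl5 (chr19:55251938-55297720), an acyl-CoA synthetase of mitochondria and endoplasmic reticulum, followed the same course. It had 80.8, 78.1, 74.0 and 82.3 CPM in WT, 115, 119, 110 and 107 CPM in Bbs2-/- and 92.5, 72.5, 68.9 and 76.7 CPM with the inhibitor. The Bbs2-/- libraries overlapped with neither of the other groups. The log2 fold changes were 0.52 (SE 0.09, adjusted p = 0.00137) and -0.54 (SE 0.09, adjusted p = 0.00111). Both genes were highest where the macrophage markers were highest, and the part of macrophage RNA in their levels was not tested.

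Acsl1, the main acyl-CoA synthetase of adipocytes, did not pass in either comparison. It had 789, 1431, 1082 and 1490 CPM in WT, 1418, 1024, 1483 and 1149 CPM in Bbs2-/- and 1243, 1180, 932 and 1327 CPM with the inhibitor. The 3 groups overlapped, with a log2 fold change of 0.08 (SE 0.20) in Bbs2-/- against WT that became -0.07 without WT 1. Cpt1b (chr15:89416405-89425863), the muscle form of Cpt1a's enzyme, was scarce. Its levels were 1.52, 0.946, 1.59 and 0.988 CPM in WT, 2.11, 3.11, 3.19 and 1.61 CPM in Bbs2-/- and 1.97, 3.27, 1.75 and 0.682 CPM with the inhibitor. It had 13 to 64 counts per library. All 4 Bbs2-/- libraries lay above all WT libraries, yet the log2 fold change of 0.98 had an SE of 0.42 and an adjusted p of 0.0839. The call was made at an adjusted p of 0.0407 when only those 2 groups were fitted and at 0.0348 without GCSi 4. Another annotated gene, Gm44502, overlaps Cpt1b on the same strand, so the authors' counting could split its reads.

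In Bbs2-/- against WT, Cpt2, Slc25a20 and Crat moved the other way from Cpt1a. Cpt2, which returns the acyl group to CoA inside mitochondria, was 129 ± 24.5 CPM in WT, 82.2 ± 10.1 CPM in Bbs2-/- and 121 ± 17.2 CPM with the inhibitor. It fell by 0.65 on the log2 scale (SE 0.15, adjusted p = 0.00548) and rose by 0.56 with the inhibitor (SE 0.15, adjusted p = 0.0133). Slc25a20, the carnitine-acylcarnitine carrier, fell from 83.8 ± 19.9 to 60.2 ± 6.56 CPM (adjusted p = 0.0319), and Crat, which makes acetylcarnitine, from 348 ± 78.5 to 214 ± 17 CPM (adjusted p = 0.00893). Neither passed with the inhibitor, at 76.3 ± 5.60 and 278 ± 61.9 CPM. The ratio of Cpt1a to Cpt2 in CPM, chosen after its values were seen and given with no test, was 1.55, 0.667, 0.578 and 0.697 in WT, 1.91 to 2.42 in Bbs2-/- and 0.799 to 1.19 with the inhibitor. The Bbs2-/- libraries lay apart in this ratio, and WT 1 was the WT library nearest to them.

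The proportion of the 2 forms of the entry enzyme was not shown to differ between groups. The ratio of Cpt1a to Cpt1b in CPM was 86.6 ± 25.0 in WT, 74.0 ± 23.8 in Bbs2-/- and 83.8 ± 59.6 with the inhibitor. On the log2 scale Bbs2-/- differed from WT by -0.22 (exact two-sided permutation test, p = 0.514), inhibitor-fed from untreated Bbs2-/- by -0.01 (exact p = 1.0) and inhibitor-fed Bbs2-/- from WT by -0.24 (exact p = 0.714). The p adjusted over the 3 comparisons was 1.0 for each, and 4 libraries against 4 could reach 0.0286 at the smallest. The ratio ran from 33.9 to 170 among the inhibitor-fed libraries, where Cpt1b had 13 to 60 counts per library.

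The acyl-CoA dehydrogenases, which start each turn of the cycle and differ in the chain length they take, fell in 4 of 5 cases in Bbs2-/- against WT and rose in 3 of 5 with the inhibitor. Acadsb (chr7:131410601-131448944), which takes short branched chains such as those from isoleucine, had 167, 199, 198 and 207 CPM in WT, 104, 94.4, 98.1 and 84.8 CPM in Bbs2-/- and 170, 177, 232 and 241 CPM with the inhibitor. All Bbs2-/- libraries lay below all others. Its log2 fold changes were -1.01 (SE 0.13, adjusted p = 0.000193) and 1.10 (SE 0.13, adjusted p = 0.000123). Acads, the short-chain enzyme, fell from 139 ± 29.3 to 78.3 ± 8.90 CPM (adjusted p = 0.00151) and rose to 131 ± 15.1 CPM with the inhibitor (adjusted p = 0.00303). Acadvl, the very-long-chain enzyme bound to the inner membrane, fell from 184 ± 24.7 to 124 ± 13.8 CPM (adjusted p = 0.0038) and rose to 179 ± 19.8 CPM (adjusted p = 0.00605).

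The medium- and long-chain enzymes did not pass with the inhibitor. Acadm fell from 525 ± 104 to 355 ± 22.3 CPM (adjusted p = 0.00682), and its level of 446 ± 38.4 CPM with the inhibitor did not pass (adjusted p = 0.078). Acadl (chr1:66830839-66863277), the long-chain enzyme, did not pass in any comparison. It had 191, 229, 334 and 339 CPM in WT, 219, 180, 197 and 195 CPM in Bbs2-/- and 204, 283, 231 and 258 CPM with the inhibitor. WT 1 lay within the Bbs2-/- range and the other WT libraries above it, with a log2 fold change of -0.46 (SE 0.18, adjusted p = 0.0541), and without WT 1 the value was -0.60 (adjusted p = 0.00716) and without WT 2 it was -0.54 (adjusted p = 0.0473).

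Of the hydratase, hydroxyacyl-CoA dehydrogenase and thiolase genes, 4 of 5 fell in Bbs2-/- and 2 of 5 rose with the inhibitor. Echs1 (chr7:140105710-140116476), the short-chain enoyl-CoA hydratase, had 168, 232, 254 and 215 CPM in WT, 111, 98.9, 109 and 118 CPM in Bbs2-/- and 181, 191, 229 and 291 CPM with the inhibitor. The Bbs2-/- libraries lay below all others. The log2 fold changes were -0.99 (SE 0.16, adjusted p = 0.000693) and 1.03 (SE 0.16, adjusted p = 0.00056). Hadh, the short-chain hydroxyacyl-CoA dehydrogenase, fell from 417 ± 85.0 to 230 ± 28.6 CPM (adjusted p = 0.00224) and rose to 384 ± 72.8 CPM (adjusted p = 0.00545). Acaa2, the mitochondrial thiolase for medium chains, fell by 0.33 on the log2 scale (SE 0.10, adjusted p = 0.025) from 172 ± 23.0 CPM, and did not pass with the inhibitor, at 158 ± 11 CPM.

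Hadha and Hadhb encode the alpha and beta subunits of the mitochondrial trifunctional protein, which carries out the later steps for long chains. Hadha (chr5:30118304-30155162) had 205, 223, 232 and 235 CPM in WT, 229, 233, 240 and 201 CPM in Bbs2-/- and 183, 176, 198 and 214 CPM with the inhibitor. The groups overlapped, and neither the log2 fold change of 0.01 (SE 0.09) in Bbs2-/- nor that of -0.23 (SE 0.09, adjusted p = 0.0684) with the inhibitor passed. The latter passed without Bbs2-/- 4 (adjusted p = 0.0263) or GCSi 4 (adjusted p = 0.0414), with DESeq2 (adjusted p = 0.025) and with library size alone (-0.36, adjusted p = 0.00898). Hadhb (chr5:30155248-30184593) had 294, 365, 356 and 351 CPM in WT, 263, 275, 294 and 274 CPM in Bbs2-/- and 278, 297, 274 and 305 CPM with the inhibitor. It fell by 0.31 on the log2 scale in Bbs2-/- (SE 0.09, adjusted p = 0.0174), a call that was lost without WT 2 or without Bbs2-/- 1, 2 or 4 (adjusted p 0.0517 to 0.072). With the inhibitor it differed by 0.06 (SE 0.09), or by -0.07 when libraries were scaled by their size alone. The ratio of Hadha to Hadhb in CPM, chosen after its values were seen and given with no test, was 0.612 to 0.696 in WT, 0.733 to 0.872 in Bbs2-/- and 0.593 to 0.723 with the inhibitor. The 4 Bbs2-/- libraries thus had more Hadha per Hadhb than any other library. The 85 bases between these genes are printed above.

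**Figure D2:**
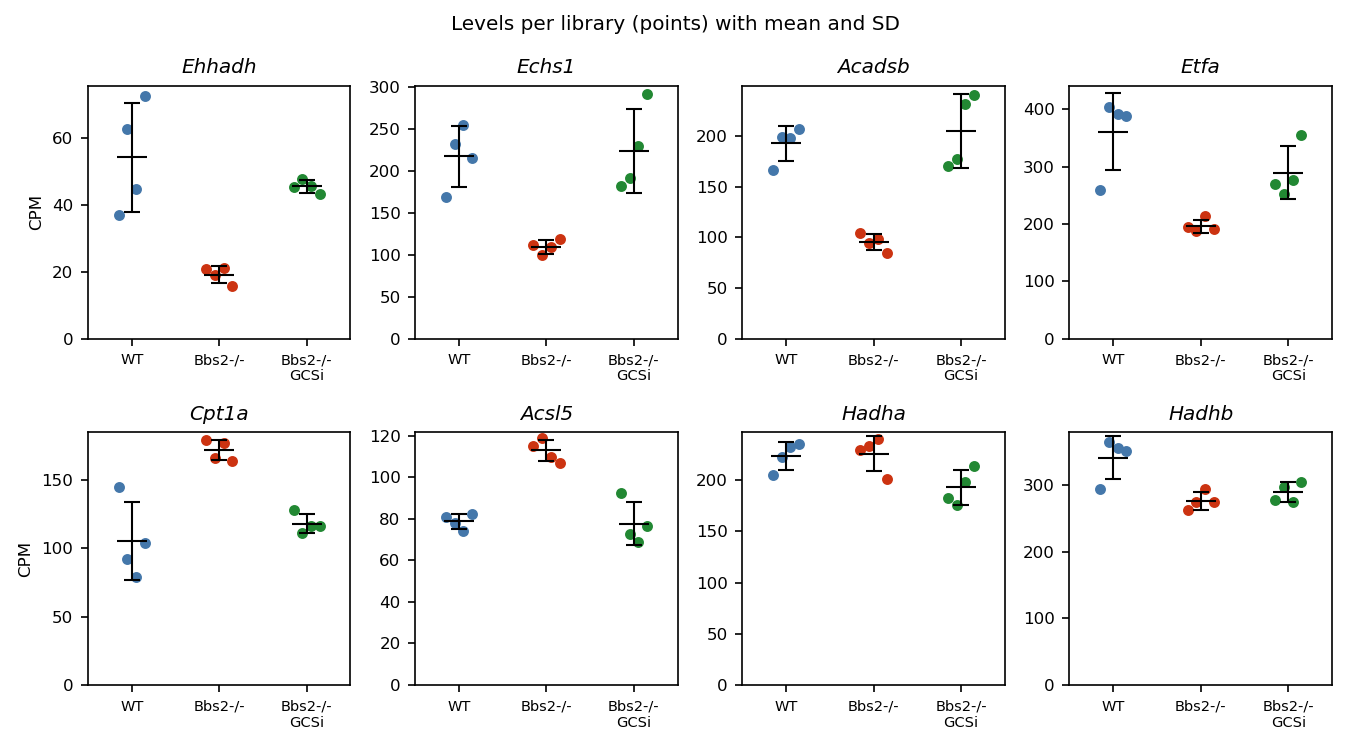
CPM of 8 genes in each library (points), by group, with the mean and SD in black and each axis starting at 0. Ehhadh, Echs1, Acadsb and Etfa are lowest in the untreated Bbs2-/- libraries, Cpt1a and Acsl5 are highest there, and Hadha overlaps between groups.

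The genes of 3 auxiliary enzymes, which prepare unsaturated fatty acids for the cycle, all fell in Bbs2-/- and all rose with the inhibitor. Eci2 (chr13:34977748-35027096), an enoyl-CoA isomerase of peroxisomes and mitochondria, had 79.5, 81.3, 102 and 97.8 CPM in WT, 57.3, 56.9, 62.8 and 58.2 CPM in Bbs2-/- and 77.7, 76.2, 80.1 and 97.6 CPM with the inhibitor. Its Bbs2-/- libraries were close together and below all others. The log2 fold changes were -0.62 (SE 0.11, adjusted p = 0.00109) and 0.50 (SE 0.11, adjusted p = 0.00392). Eci1, the mitochondrial isomerase, fell from 69.3 ± 18.9 to 39.7 ± 8.23 CPM (adjusted p = 0.025) and rose to 72.2 ± 23.3 CPM (adjusted p = 0.0191). Decr1, the mitochondrial dienoyl-CoA reductase, fell from 219 ± 38.6 to 154 ± 19.2 CPM (adjusted p = 0.0135) and rose to 206 ± 23.0 CPM (adjusted p = 0.0351).

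The electron transfer flavoprotein takes electrons from all acyl-CoA dehydrogenases. Etfa (chr9:55454508-55512243), its alpha subunit, had 260, 404, 392 and 388 CPM in WT, 194, 187, 213 and 192 CPM in Bbs2-/- and 269, 252, 277 and 356 CPM with the inhibitor. All Bbs2-/- libraries lay below all others, and WT 1 lay far below the other WT libraries. The log2 fold changes were -0.88 (SE 0.15, adjusted p = 0.000886) and 0.55 (SE 0.15, adjusted p = 0.0115), and with the inhibitor Etfa stood at -0.32 (SE 0.15, adjusted p = 0.469) relative to WT. Etfb, the beta subunit, fell from 252 ± 65.4 to 154 ± 17.5 CPM (adjusted p = 0.00759) and did not pass with the inhibitor, at 190 ± 23.5 CPM. Etfdh (chr3:79603788-79629500), which hands the electrons on to ubiquinone, did not pass in either comparison. It had 92.8, 114, 114 and 124 CPM in WT, 110, 93.1, 107 and 74.4 CPM in Bbs2-/- and 104, 98.2, 114 and 120 CPM with the inhibitor, with overlap between all groups and a log2 fold change of -0.21 (SE 0.13) in Bbs2-/- against WT.

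Of the 6 peroxisomal genes, 3 fell in Bbs2-/- against WT, and 3 rose and 1 fell with the inhibitor. Ehhadh (chr16:21761287-21787807), the bifunctional hydratase and dehydrogenase of peroxisomes, had the lowest fold change of all 31 genes. It had 37.1, 62.8, 44.8 and 72.7 CPM in WT, 20.8, 19.0, 21.0 and 15.6 CPM in Bbs2-/- and 45.3, 47.8, 45.7 and 43.2 CPM with the inhibitor. The Bbs2-/- libraries lay well below all others, and the inhibitor-fed ones lay inside the WT range. The log2 fold changes were -1.51 (SE 0.18, adjusted p = 0.000168) and 1.25 (SE 0.18, adjusted p = 0.000407). Hsd17b4, a multifunctional enzyme that handles branched chains, fell from 363 ± 53.9 to 233 ± 31.2 CPM (adjusted p = 0.00207) and rose to 319 ± 15.4 CPM (adjusted p = 0.0139). Acaa1a, a peroxisomal thiolase, fell from 122 ± 16.3 to 88.2 ± 6.46 CPM (adjusted p = 0.00384) and rose to 116 ± 6.56 CPM (adjusted p = 0.0107).

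The other peroxisomal genes did not pass in Bbs2-/- against WT. Acox3 (chr5:35583040-35615352), an oxidase of branched-chain acyl-CoAs, had 81.4, 89.7, 74.2 and 68.6 CPM in WT, 85.4, 79.7, 84.6 and 78.3 CPM in Bbs2-/- and 65.0, 70.8, 62.9 and 59.3 CPM with the inhibitor. It did not pass in Bbs2-/- against WT (0.06, SE 0.09) and fell with the inhibitor by 0.35 on the log2 scale (SE 0.09, adjusted p = 0.0123). Against WT the inhibitor-fed libraries differed by -0.28 (SE 0.09, adjusted p = 0.298). Acaa1b (chr9:119148023-119157093), a close copy of Acaa1a with which it may share reads, had 55.5, 128, 95.1 and 128 CPM in WT, 62.5, 56.3, 59.3 and 70.1 CPM in Bbs2-/- and 138, 111, 61.3 and 99.1 CPM with the inhibitor. WT 1 lay below all Bbs2-/- libraries and GCSi 3 among them, and the log2 fold changes of -0.71 (SE 0.27, adjusted p = 0.0544) and 0.72 (SE 0.27, adjusted p = 0.0536) did not pass. Without WT 1 both passed, at adjusted p of 0.00637 and 0.017, as both did without GCSi 3, at 0.0308 and 0.017. Without GCSi 1 only the former passed (adjusted p = 0.0469). Decr2 (chr17:26081208-26090337), the peroxisomal dienoyl-CoA reductase, had 18.8, 22.9, 23.4 and 14.8 CPM in WT, 18.5, 14.1, 19.2 and 18.2 CPM in Bbs2-/- and 23.0, 15.6, 19.4 and 23.7 CPM with the inhibitor, with full overlap.

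Acot2 and Ppara completed the set. Acot2 (chr12:83987861-83993873), a mitochondrial thioesterase that splits acyl-CoA and has the close copy Acot1, had 9.15, 14.9, 13.4 and 14.7 CPM in WT, 8.71, 6.47, 8.68 and 9.06 CPM in Bbs2-/- and 9.31, 10.4, 11.6 and 22.8 CPM with the inhibitor. All Bbs2-/- libraries lay below all others, by a small margin, and the log2 fold changes of -0.66 (SE 0.27, adjusted p = 0.0693) and 0.72 (SE 0.27, adjusted p = 0.0534) did not pass. Without GCSi 4, its highest library, the former passed (adjusted p = 0.0116). Both passed without WT 1, at adjusted p of 0.0332 and 0.0424, and the latter without GCSi 1 or 2, at 0.0267 and 0.0448. Ppara (chr15:85734983-85802819) had 3.10, 1.49, 1.13 and 1.74 CPM in WT, 2.01, 0.692, 1.6 and 0.614 CPM in Bbs2-/- and 1.6, 1.42, 2.59 and 1.99 CPM with the inhibitor. These are 13 to 57 counts per library, the groups overlapped, and the differences of -0.61 and 0.63 (SE 0.44 each) did not pass.

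**Figure D3:**
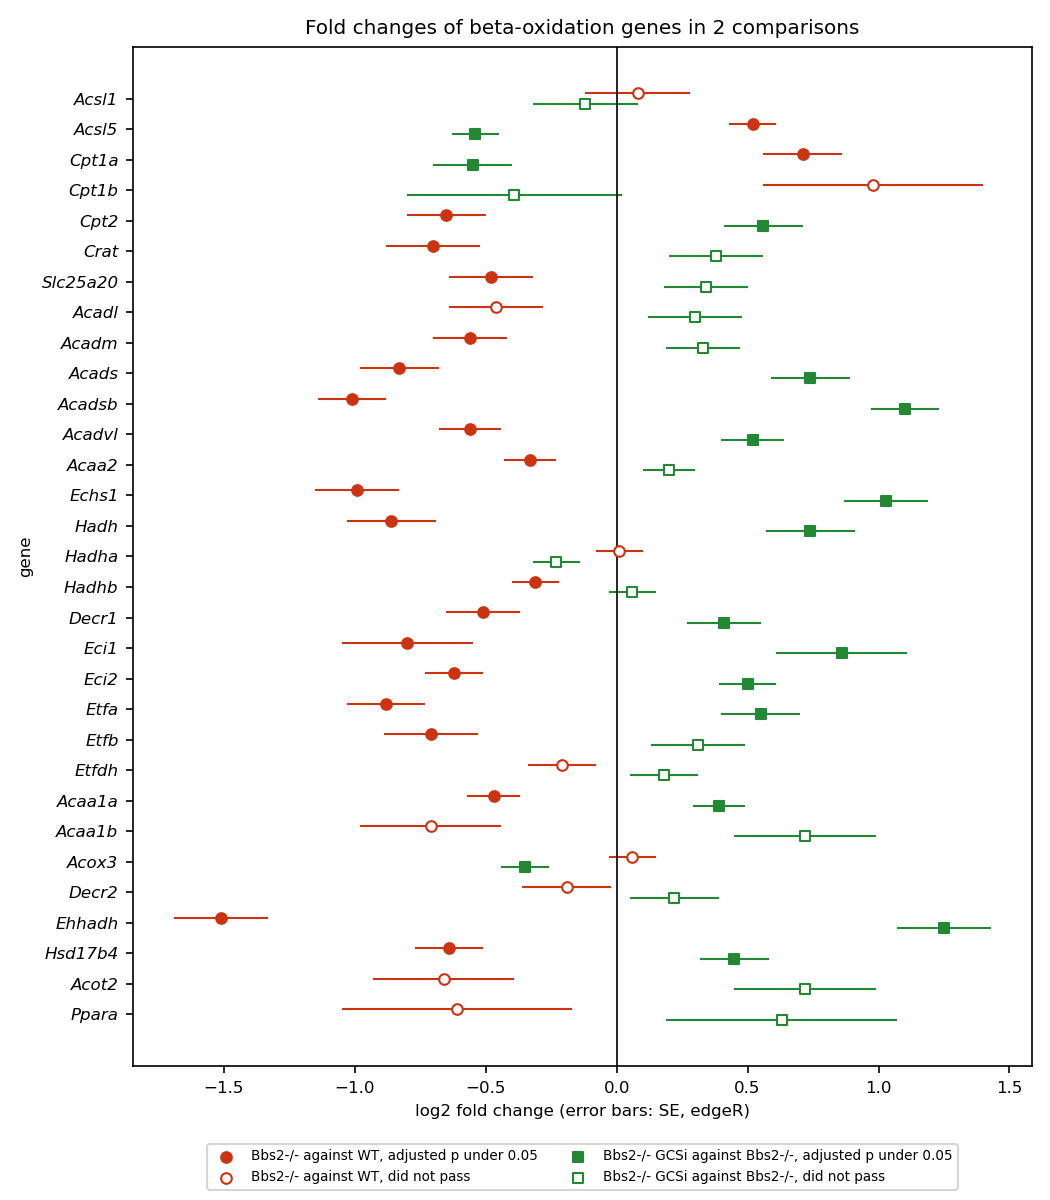
Log2 fold change (horizontal axis, error bars SE) of the 31 genes in Bbs2-/- against WT (red circles) and in inhibitor-fed against untreated Bbs2-/- (green squares), filled where the adjusted p was under 0.05. In most genes the circle lies left of 0 and the square right of it, Cpt1a and Acsl5 show the reverse, and the 2 comparisons share the untreated Bbs2-/- libraries.

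Per length, the genes differed widely in level. In the authors' deposited log2 FPKM, the WT means ran from 8.37 for Acsl1, 8.25 for Etfb and 8.15 for Etfa to 2.90 for Acot2, 0.74 for Ppara and 0.56 for Cpt1b. Of the 30 pairs of neighbours in this order, 22 were no further apart than the larger SD of the pair, among them Acsl1 and Etfb. The larger steps included those from Hadh (7.99) to Hadhb (7.54), from Ehhadh (4.36) to Decr2 (3.46) and from Acot2 to Ppara. Cpt1a was 4.77 ± 0.36 in WT and 5.43 ± 0.06 in Bbs2-/-, while Cpt2 was 5.93 ± 0.30 and 5.24 ± 0.18. By these values Cpt1a lay below Cpt2 in each WT library and above it in each Bbs2-/- library. The gap was small in Bbs2-/- 3 (5.48 and 5.41) and Bbs2-/- 4 (5.36 and 5.28). In CPM, which is not scaled to length, WT 1 had Cpt1a above Cpt2 (145 and 93.4 CPM).

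For other genes of the pathway, most calls had the same direction as for the 31. Of 48 further genes of fatty acid activation, peroxisomes, ketone bodies and their regulators, 47 could be tested. In Bbs2-/- against WT 22 fell (46.8%, against 19.7% of all genes) and 2 rose (4.26%, against 19.6%), with a median of -0.41. With the inhibitor 19 rose (40.4%, against 18.5% of all genes) and 2 fell (4.26%, against 18.8%), with a median of 0.38. Phyh, which starts the alpha-oxidation of phytanic acid, was 228 ± 42.3 CPM in WT, 114 ± 9.32 CPM in Bbs2-/- and 213 ± 47.5 CPM with the inhibitor, a fall (adjusted p = 0.000878) and a rise (adjusted p = 0.00156). Hacl1, a later enzyme of the same route, was 38.8 ± 8.19, 20.6 ± 1.65 and 28.0 ± 3.37 CPM, with adjusted p of 0.000711 and 0.0335. The latter call was lost without any one of the 4 untreated libraries, and without GCSi 1, 2 or 4 (adjusted p 0.0605 to 0.111). Acad11, a dehydrogenase of long chains, was 154 ± 26, 80.0 ± 6.26 and 142 ± 21.2 CPM (adjusted p 0.000374 and 0.000821). Acat1, the mitochondrial acetoacetyl-CoA thiolase, was 277 ± 46.3, 146 ± 15.9 and 292 ± 38.1 CPM (adjusted p 0.000474 and 0.000314).

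Acsl3, an acyl-CoA synthetase of lipid droplets, was 14.2 ± 4.31 CPM in WT, 22.5 ± 1.96 CPM in Bbs2-/- and 16.2 ± 3.85 CPM with the inhibitor. It rose in Bbs2-/- (adjusted p = 0.0217), a call lost without WT 2, 3 or 4 (adjusted p 0.0592 to 0.0631), and did not pass with the inhibitor (adjusted p = 0.0867). That difference passed in 4 alternatives, at adjusted p from 0.0253 (without WT 1) to 0.0492 (library size alone). Fabp3, a fatty acid carrier of muscle, was 0.661 ± 0.531, 1.40 ± 0.233 and 0.277 ± 0.106 CPM, with an adjusted p of 0.135 in Bbs2-/- against WT, or 0.032 without WT 1, and a fall with the inhibitor (adjusted p = 0.00769). Esrra, which encodes a nuclear receptor of mitochondrial genes, was 32.6 ± 3.87, 38.6 ± 2.69 and 44.5 ± 7.81 CPM and passed in no comparison, except in Bbs2-/- against WT with library size alone (adjusted p = 0.0131) or with a replicate block (adjusted p = 0.0443).

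Against WT, the inhibitor-fed libraries had 1 called gene among the 47, Pdk4, which is named because it was the one called and thus after its values were seen. Pdk4, a kinase that shuts down pyruvate dehydrogenase, had 132, 178, 82.0 and 148 CPM in WT, 52.7, 46.5, 71.5 and 52.2 CPM in Bbs2-/- and 24.9, 39.6, 53.5 and 47.0 CPM with the inhibitor. Its WT libraries lay above all others. It fell by 1.28 on the log2 scale in Bbs2-/- against WT (SE 0.26, adjusted p = 0.00279) and was -0.43 (SE 0.26, adjusted p = 0.21) with the inhibitor against untreated Bbs2-/-. Inhibitor-fed Bbs2-/- stood at -1.71 relative to WT (SE 0.26, adjusted p = 0.0284), a call lost without WT 2, WT 4, Bbs2-/- 4 or GCSi 1, 2 or 4 (adjusted p 0.0506 to 0.11).

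Genes of other mitochondrial pathways moved in the same direction as the beta-oxidation genes. Of 19 nuclear-encoded genes of the respiratory chain 18 fell in Bbs2-/- (94.7%, against 19.7% of all genes), with a median of -0.59. With the inhibitor 17 rose (89.5%, against 18.5% of all genes), with a median of 0.48. Of 11 genes of the tricarboxylic acid cycle 10 fell in Bbs2-/- (90.9%), with a median of -0.58, and 9 rose with the inhibitor (81.8%), with a median of 0.47. None of these 30 genes passed against WT with the inhibitor, where only 0.257% of all genes did, so this does not set them apart from other genes. The beta-oxidation medians of -0.56 and 0.39 were close to these. The 31 genes ranged more widely, from -1.51 to 0.98 and from -0.55 to 1.25, against -0.87 to -0.38 and 0.36 to 0.80 for the respiratory chain. The end at 0.98 was the scarce Cpt1b, which did not pass, and the highest called value there was 0.71, of Cpt1a. The lists also differ in size, and a range can widen with the number of genes. The difference between the lists was not tested.

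**Figure D4:**
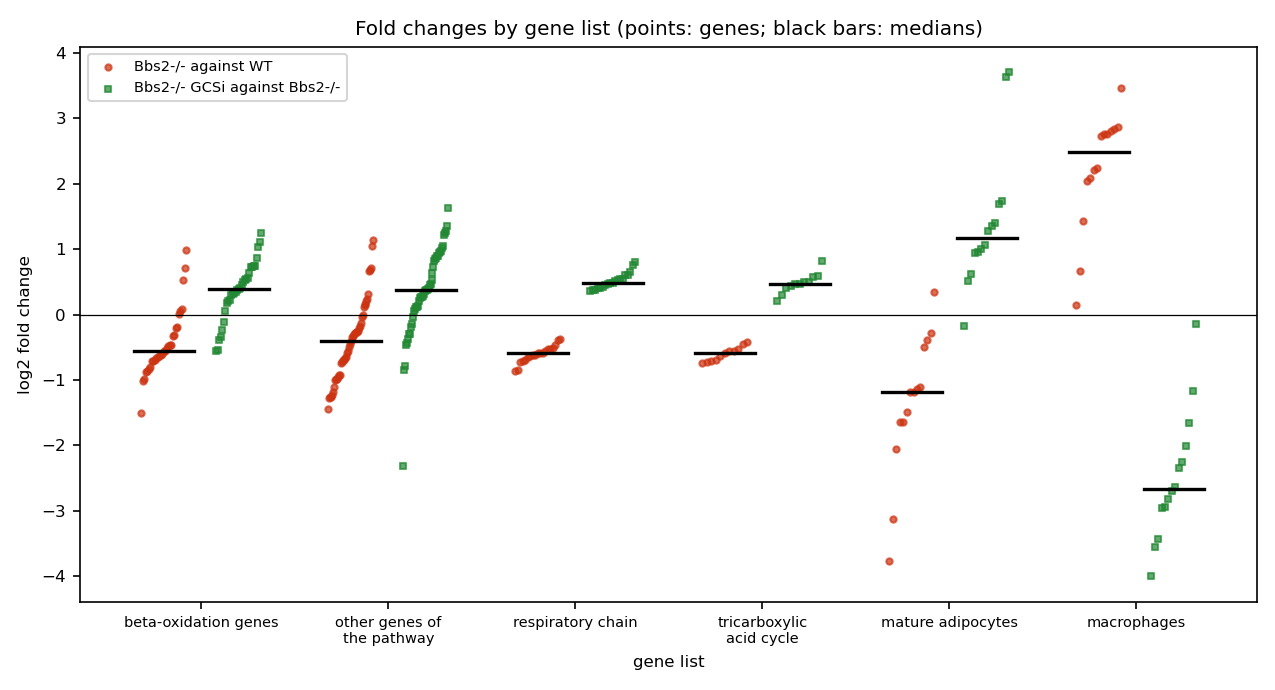
Log2 fold change of each gene (points) and the median (black bars) for the beta-oxidation genes, other genes of the pathway and 4 comparison lists, in Bbs2-/- against WT (red) and in inhibitor-fed against untreated Bbs2-/- (green). The respiratory chain and tricarboxylic acid cycle genes lie on one side of 0 in each comparison, and the beta-oxidation genes lie on both sides.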

How the data were processed

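RNA of whole adipose tissue was sequenced from libraries made to keep strand (per the labels). The authors deposited a table of estimated counts per gene (92.96% to 94.17% of values whole in each library) and a table of log2 FPKM values for 18810 genes. The submitters' processing notes name mm10. Aligner, counter, use of strand in counting and any constant added before the log: not given in the sources used here. Gene names and positions were taken from GENCODE M21 by gene ID. Of the 31 members, 14 overlap an annotated gene on the opposite strand. On the same strand 8 overlap another annotated gene, among them Cpt1b and Etfb, and counting could split the reads of these 8.

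After rounding, edgeR 4.0.16 (R 4.3.3) tested the counts (robust quasi-likelihood, trimmed-mean scaling, its expression filter by group, all 12 libraries in 1 fit, Benjamini-Hochberg over 15968 genes), after a test on simulated data. In that test, over genes of all levels, 17.9% to 22.4% of changes of 1.5-fold were recovered. Of 2-fold changes it was 38.8% to 52.2%, and of 4-fold changes 71.2% to 83.3%. A gene that did not pass may thus have changed by such a fold. The biological coefficient of variation was 0.29. Alternatives were DESeq2 1.42.0, limma 3.58.1 on log2 FPKM, other scalings and filters, 2 groups alone, a replicate block and libraries left out. The Cpt1a to Cpt1b ratio was tested by exact permutation, with 0.5 CPM added as an alternative only. Replicates differed beyond counting noise (chi-square per degree of freedom 17.8 to 84.9).

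The rule for the members uses no measured value, but members, lists and tests were chosen with earlier results of these data known, so their shares beside the background are descriptions. Values of every library were given for the member with the smallest p in each role in Bbs2-/- against WT, for Cpt1a, Cpt1b and Ppara, and for members that changed against the majority or passed in no comparison. Hadhb was added after its values were seen. Of the other pathway genes, the 4 with the smallest p in each direction were named, except 1 gene that is not reported here.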

Additional observations from a re-analysis of the deposited data

Results flagged for a closer look

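In 8 of 93 checked groups (31 genes in 3 groups of 4 libraries), 1 library stood apart from the others by Dixon's criterion, a gap above its critical value for 4 samples. Chance would give about 4.65 such groups, at 1 in 20.

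Of the 8, 4 were high values in GCSi 4, an inhibitor-fed library. Crat was 370 CPM there, against 240 to 261 CPM in the other inhibitor-fed libraries. Acads was 153 CPM, against 121 to 124 CPM. Hadh was 493 CPM, against 343 to 354 CPM. Etfb was 226 CPM, against 177 to 180 CPM.

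A further 3 were low values in WT 1, the library with Crisp1 at 1082 CPM and the highest macrophage sum of its group. Acadvl was 147 CPM, against 193 to 200 CPM in the other WT libraries. Etfa was 260 CPM, against 388 to 404 CPM. Acaa1a was 98.1 CPM, against 129 to 133 CPM.

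The last was Acot2 in Bbs2-/- 2, at 6.47 CPM against 8.68 to 9.06 CPM.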

How the results depend on the processing

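The member counts in Bbs2-/- against WT (21) ran from 17 to 24 with 1 library left out. They were 24 with DESeq2, 16 with library size alone, 18 without a filter and 22 with the replicate block. The calls over all genes (6263) moved as well, from 4951 to 7212 with 1 library left out. Under the other settings, in the same order, they were 6822, 6465, 5430 and 6012. With the inhibitor against untreated Bbs2-/- the member counts (16) ran from 13 to 21, and were 20 with DESeq2. There the calls over all genes (5947) ran from 4614 to 6611, and were 6528 with DESeq2. DESeq2 added Acadl, Acaa1b and Acot2 to the former comparison and Acadm, Hadha, Acaa1b and Acot2 to the latter. Among the 22 alternatives, 10 of the 21 and 11 of the 16 calls held in all. Without WT 2 and WT 3, Bbs2-/- against WT had 3417 called genes, 10 members and 15 other pathway genes. No member passed in inhibitor-fed Bbs2-/- against WT under any alternative. The 41 genes called there became 281 with DESeq2, 2 with only those groups, 24 with log2 FPKM, 9 with the replicate block, 1 without WT 2 and WT 3, 2 without the 4 libraries highest in ciliated epithelium markers (WT 1, WT 4, GCSi 1 and GCSi 3) and 3 to 49 with 1 library left out. The 1 other pathway gene, Pdk4, became 2 genes with DESeq2, 0 to 1 with 1 library left out, and 0 under only those groups, log2 FPKM, the replicate block, without WT 2 and WT 3 and without those 4 libraries.

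Scaled by library size alone, the all-gene median went from -0.019 to 0.164 in Bbs2-/- against WT, and 69.0% of the called genes were higher instead of 49.9%. With the inhibitor it went from 0.032 to -0.097, and 35.5% were higher instead of 49.6%. Against WT, 79.6% of the called genes were higher instead of 68.3%. The members' median in Bbs2-/- against WT was then -0.38 instead of -0.56. Relative to all genes it was -0.54 in both. A change of scaling shifts all genes nearly alike, so this relative value could not differ and is no check of the fall.

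Of the sign changes, none was in a called value. In Bbs2-/- against WT, Decr2 was 0.0 with library size alone and 0.07 without WT 2 and WT 3. Hadha was -0.06 with log2 FPKM, -0.02 without those 4 libraries and -0.03 without WT 1 (-0.03 to 0.1 with any 1 library left out). Acox3 was -0.0 and -0.01 under the former 2 of these, and Acsl1 -0.07 without WT 1 (-0.07 to 0.21 with any 1 library left out). Hadhb was -0.07 with the inhibitor under library size alone. The difference of log2 FPKM between Cpt1a and Cpt1b was 0.29 higher in Bbs2-/- than in WT. The lowest deposited log2 FPKM was 0.0, and Cpt1b stood near it, at 0.56 in WT and 0.92 in Bbs2-/-. Any constant added before the log is not known, so this difference need not be the log2 ratio. With 1 library left out the log2 ratio in CPM ran from -0.47 to -0.09 in Bbs2-/- against WT. It ran from -0.44 to 0.34 with the inhibitor, and from -0.66 to 0.12 in inhibitor-fed Bbs2-/- against WT. The cause of these changes was not tested.

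The replicate numbers pair nothing in the labels, and same-numbered libraries correlated at -0.15 to 0.31 in their deviations, over 0.1 in 4 of 12 pairs. A replicate block moved the member counts to 22 and 15, and the calls over all genes to 6012 and 5680. Cpt1b and Ppara had few counts, at most 64 and 57 per library, and the part of depth in their spread was not tested.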
